A study of Mus musculus with 12 samples.

Results

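The arrays compared here are those of *Terc*-/- (KO) cells in the undifferentiated state at day 0 and after 8 days of differentiation. They were chosen by their titles, and they are 4 of the 12 arrays of the series. Each is an Affymetrix array of the mouse genome, which reads a transcript with a probe set, a group of short probes, and gives it a relative intensity. *Terc* encodes the RNA template of telomerase, the enzyme that maintains the chromosome ends. The KO cells are of the G3/4 generations on a C57BL/6 background, that is, they come from mice bred for several generations without telomerase.

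At day 0 there were 2 KO ES cell arrays, 1 of line F35 and 1 of line A49, both at passage 11. At day 8 there were 2 KO arrays, whose lines the labels do not name. The WT arrays used beside them were also 2 at day 0, of the lines N12 and N33 at passage 12, and 2 at day 8, on the same C57BL/6 background. ES cells were kept with LIF on mouse embryonic fibroblasts treated with mitomycin C. For differentiation, embryoid bodies were formed in hanging drops without LIF for 4 days and then plated, so the day 8 arrays hold a mixture of cell types from a whole culture. In such bulk RNA, fewer cells of a type and less RNA per cell cannot be told apart. Nothing in the labels ties a day 8 array to a day 0 line, so the p-values measure the spread between arrays within groups, and each group has only 2. *Terc* has no probe set that reads it alone, and the genotype therefore rests on the labels.

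As background, mouse ES cells in LIF hold the naive state of the early epiblast. LIF acts through its receptor, Jak kinases and Stat3 on a set of transcription factors that includes Klf4, Tfcp2l1 and Esrrb, while Oct4 (*Pou5f1*), Sox2 and Nanog form the core of the network. When LIF is withdrawn, the naive factors are silenced first. Cells then pass through a formative and primed epiblast state marked by Fgf5, Otx2 and the de novo DNA methyltransferases, in which Oct4 is still made. From there Nodal, BMP, Wnt and Fgf signals direct cells through a primitive streak-like state into mesoderm and endoderm. Cells that do not take this path form ectoderm, which becomes neural where BMP signals are low and epidermal where they are high.

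The deposited values of the 4 day 0 arrays lie on another scale than those of the later arrays. Median deposited intensities were 117 on both KO day 0 arrays and 51.8 on both KO day 8 arrays, and the lowest values were 1 at day 0 and 3.46 and 3.65 at day 8. The arrays were therefore quantile normalized before they were compared, and levels below are given as normalized intensity or as the percentile of a gene within its own array. The rank correlation across 42596 probe sets was 0.99 between the KO day 0 arrays, 0.993 between the KO day 8 arrays, and 0.869 to 0.875 between days. Since all day 0 arrays share that scale, day and processing cannot be told apart in a change from day 0 to day 8. Normalization removes differences of scale but not differences between probe sets, and WT cells, whose day 0 and day 8 arrays differ in scale in the same way, are given beside the KO cells for that reason. Precision here is set by the number of arrays, which have no read depth. The table gives no detection calls, so a value near the bottom of an array may be background, and a log2 change from or to such a value is not a measured fold.

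Log2 normalized intensities of 45037 probe sets entered 1 limma fit that used all 12 arrays, and p-values were adjusted by Benjamini-Hochberg over all of them. A probe set or gene is said to have risen or fallen where the adjusted p was under 0.05 and the change at least 1.8-fold. By this rule 7493 probe sets (16.6%) rose and 7654 (17.0%) fell in KO cells. With 1 probe set per gene, the brightest, 2697 of 18093 genes (14.9%) rose and 3002 (16.6%) fell. The counts of gene lists below are to be read beside these 2 shares, also where they are not repeated. Of the genes called, 47.3% rose, against 58.3% where the arrays were only centred on their medians and 3.91% where the deposited values were used as they are. In the last case the median log2 change over all probe sets was -1.09. This difference in scale was not the same at all intensities. The highest deposited values were 20568 and 20573 on the KO day 0 arrays and 21812 and 21637 on the KO day 8 arrays. The changes below are those left after normalization. Probe sets of the same gene did not always move together. Of 8469 genes with more than 1 probe set, 669 (7.9%) had probe sets called in opposite directions. Of the 2643 such genes that were called, 486 had all their probe sets called the same way. A call for such a gene therefore often rests on part of its probe sets, also where the text does not say so. Of 11 reference genes used to normalize expression, 0 rose and 1, *Tfrc*, fell, and their median log2 change was -0.23 against 0.00 over all genes.

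The naive pluripotency genes fell in KO cells. Of 19 measured genes, 13 fell and 0 rose, with a median log2 change of -1.98, beside 16.6% of all genes that fell. *Klf4*, a zinc finger factor downstream of Stat3, had a normalized intensity of 5759 and 5466 in lines F35 and A49 and of 729.7 and 620.5 on the day 8 arrays. This was the largest fall of the list, a log2 change of -3.06 (SE 0.54, adjusted p = 0.00107 from limma). *Zfp42* (Rex1), the usual reporter of the naive state, went from 981 and 1142 to 178 and 201, a log2 change of -2.48 (SE 0.47, adjusted p = 0.00149 from limma). In both genes each day 0 line lay above both day 8 arrays.

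*Esrrb*, an orphan nuclear receptor that sustains self-renewal, read 1994 and 2070.2 at day 0 and 411 and 375 at day 8 (log2 change -2.37, SE 0.22). *Klf2* read 3511 and 4847 and then 916 and 786 (log2 change -2.28, SE 0.21). *Nr0b1* (Dax1), *Fbxo15*, *Dppa3* (Stella), *Tfcp2l1* and *Gbx2* had log2 changes of -2.19, -2.17, -2.13, -2.05 and -2.05, and *Tcl1*, *Gdf3* and *Pecam1* of -1.98, -1.96 and -1.82. *Tbx3*, a T-box factor of the same network, fell by a smaller amount, with a log2 change of -1.42 (adjusted p = 0.0103 from limma), and its day 0 level differed between the lines, at 758 and 1757 in F35 and A49. Of its 4 probe sets 1 rose and 1 fell, their mean gave 0.05, and the call was lost without A49 or without the second day 8 array (adjusted p = 0.0645 and 0.0564 from limma).

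The other 6 naive genes did not pass. *Klf5* had nearly the same level at both days, 1672 and 1671 at day 0 and 1617 and 1518 at day 8 (log2 change -0.09, adjusted p = 0.61 from limma). *Nr5a2*, which can activate *Pou5f1*, read 179 and 189.8 and 225 and 179.5, and *Zfp57*, a zinc finger protein that protects imprints, 239 and 299 and 318 and 299. On these probe sets the values of both days lay close together. Other probe sets differed, since 2 of the 4 of *Nr5a2* fell (log2 change -2.28 and -1.08) and 1 of the 3 of *Klf5* rose (0.98), so that both genes are uncertain. *Fgf4* (log2 change -1.10, adjusted p = 0.0855 from limma), *Prdm14* (-0.81, adjusted p = 0.0558) and *Dppa5a* (-0.74, adjusted p = 0.143) were lower on both day 8 arrays than in both lines, and their change did not pass. Of the other probe sets of *Fgf4* 1 rose and 1 fell. *Dppa5a* stood at 12168 and 11637 at day 8, within the highest percentile of both day 8 arrays.

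**Figure D1:**
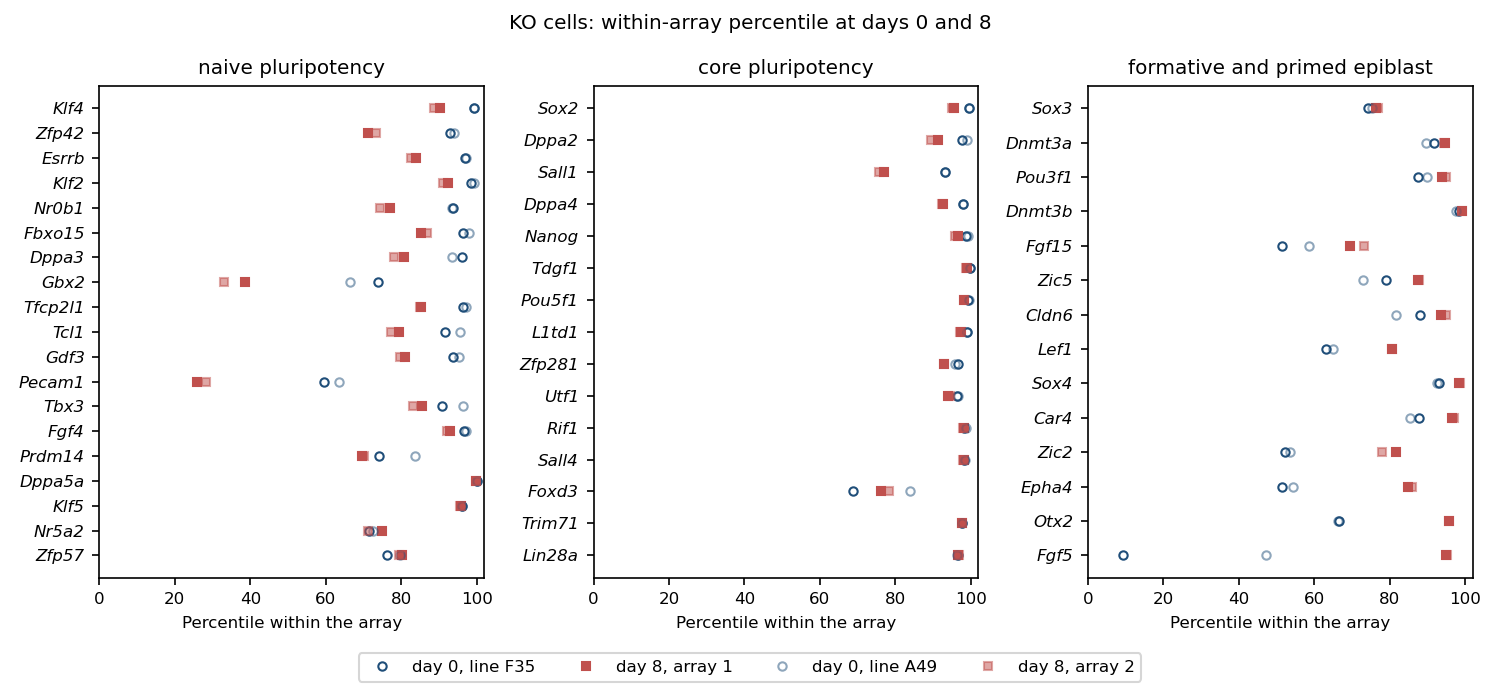
Percentile of each gene within its own array, for the 2 KO day 0 lines (open circles) and the 2 KO day 8 arrays (filled squares), with naive genes on the left, core genes in the middle and formative genes on the right. Naive genes such as *Zfp42* moved from percentiles of 93.0 and 94.0 to 71.1 and 73.2, *Pou5f1* from 99.2 and 99.4 to 98.3 and 98.1, and *Fgf5* moved from 9.40 and 47.2 to 94.9 and 95.1.

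The core pluripotency genes fell in part. Of 15 measured genes, 6 fell and 0 rose, with a median log2 change of -0.87. *Sox2* had the largest fall, from 6619.7 and 6529.5 to 1475 and 1335 (log2 change -2.23, SE 0.24, adjusted p = 2.51e-05 from limma). *Nanog* went from 3755 and 4798 to 1862 and 1615 (log2 change -1.29, SE 0.35, adjusted p = 0.00932 from limma). Both lines lay above both day 8 arrays in these 2 genes. *Dppa2* and *Dppa4*, a pair of partner proteins of early embryos, had log2 changes of -2.17 and -1.53, *Sall1* of -2.04, and *Tdgf1* (Cripto), the Nodal co-receptor, of -1.06. The *Nanog* call was lost without A49 or without the second day 8 array (adjusted p = 0.0648 and 0.0503 from limma), and that of *Tdgf1* without any single KO array, F35 (0.117), A49 (0.139) and the first (0.0876) and second (0.147) day 8 arrays. By percentile ranks, where a change of at least 10 points was asked for, 1 core gene fell.

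*Pou5f1*, which encodes Oct4, did not pass. Its intensity was 5246 and 6067 in the day 0 lines and 3156 and 2974 on the day 8 arrays, a log2 change of -0.88 (SE 0.39, adjusted p = 0.0753 from limma). Both day 8 values lay below both day 0 values, and at day 8 the gene was still at percentiles of 98.3 and 98.1 of its array, against 99.2 and 99.4 at day 0. The same fall passed where only the 4 KO arrays were fitted (adjusted p = 1.35e-04 from limma), and where only the 8 arrays of days 0 and 8 were (0.00924). *L1td1*, an RNA-binding protein of ES cells, and *Zfp281* had log2 changes of -0.87 and -0.80, and *Zfp281* passed the p threshold (adjusted p = 5.48e-05 from limma) but not the 1.8-fold limit. *Utf1* had a log2 change of -0.59 (adjusted p = 0.0591 from limma). Both *Zfp281* and *Utf1* have another, dimmer probe set that fell. *Sall4*, *Lin28a*, *Trim71* and *Rif1* had log2 changes between -0.21 and 0.15 on their brightest probe sets, none of which passed. Of the other probe sets, 2 of *Rif1* fell (log2 change -1.92 and -0.96) and 1 of *Lin28a* rose (1.62). *Lin28a*, an RNA-binding protein that blocks let-7 maturation, read 1806 and 1744 at day 0 and 1896 and 2034 at day 8. *Foxd3* differed more between the day 0 lines, at 154 and 406 in F35 and A49, than between days, with 243 and 276 at day 8.

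The promoters of these genes were searched, on both strands, for the octamer letters ATGCAAA, the letters CATTGT of SOX factors, and both in the arrangement CATTGT, 1 base of any kind, then ATGCAAA, in windows from 250 bases before to 50 bases after each start in RefSeq (GRCm38.p6). Of 16 core genes, 11 matched a promoter, of which 2 held the octamer, 3 the SOX letters and 1 both. Of all 32851 promoters, 4.63% held the octamer and 12.6% the SOX letters. The joint arrangement was in 2 of them, which are the windows of the 2 annotated starts of *Nanog* and overlap. The stretches below show the matches upstream of *Nanog*, *Sox2* and *Zfp42*, 3 genes that fell, and of *Pou5f1*, which did not pass. Capitals mark the matched letters, those of *Nanog*, *Zfp42* and *Pou5f1* read on the opposite strand.

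*Nanog* (chr6:122707394-122707447, plus strand): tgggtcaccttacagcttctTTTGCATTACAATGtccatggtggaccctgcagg
*Sox2* (chr3:34649876-34649922, plus strand): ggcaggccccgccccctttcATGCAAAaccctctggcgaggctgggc
*Zfp42* (chr8:43307168-43307214, minus strand): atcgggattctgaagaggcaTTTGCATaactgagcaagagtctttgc
*Pou5f1* (chr17:35508629-35508674, plus strand): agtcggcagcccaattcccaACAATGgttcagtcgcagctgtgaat

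The *Nanog* stretch lies 75 bases before the first of its starts and holds both sets of letters next to each other. Of the naive genes, 13 of 22 had a promoter window, and 2 of them, *Zfp42* and *Spp1*, held the octamer. A match of letters is a description of the sequence and not a measured site, and most genes that fell hold no match in this window.

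The genes of the formative and primed epiblast rose. Of 14 measured genes, 12 rose and 0 fell, with a median log2 change of 1.44, beside 14.9% of all genes that rose. *Fgf5*, the ligand that marks the epiblast after implantation, was low in both lines, at 14.7 and 59.3 in F35 and A49, and reached 1341 and 1379 at day 8. Its log2 change was 5.53 (SE 0.62, adjusted p = 7.00e-05 from limma). *Otx2*, a homeobox factor that opens formative enhancers, went from 136 and 133 to 1568 and 1547, a log2 change of 3.53 (SE 0.41, adjusted p = 5.66e-05 from limma). The day 8 arrays agreed closely in both genes and lay far above both lines.

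*Epha4*, an ephrin receptor, rose from 69.4 and 78.2 to 445 and 491 (log2 change 2.67), and all 5 of its probe sets rose. *Zic2*, a zinc finger factor, rose from 72.0 and 75.8 to 355 and 271 (log2 change 2.07). *Car4*, *Sox4*, *Lef1*, *Cldn6*, *Zic5* and *Fgf15* rose with log2 changes of 1.95, 1.89, 1.45, 1.43, 1.25 and 1.17. *Pou3f1* (Oct6) rose from 547 and 695 to 1121 and 1316, a log2 change of 0.98 (adjusted p = 0.0117 from limma). All of these genes lay higher on both day 8 arrays than in both lines. The *Zic5* call was lost without any single KO array, F35 (adjusted p = 0.06 from limma), A49 (0.201) and the first (0.106) and second (0.117) day 8 arrays, and that of *Pou3f1* without F35 or the second day 8 array (0.0806 and 0.0697). By percentile ranks 7 of the list rose.

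The de novo DNA methyltransferase *Dnmt3b* was already high in the lines, at 3109 and 2383, and rose to 5561 and 5180.2 (log2 change 0.98, adjusted p = 0.00421 from limma), a change that was under 1.8-fold without A49 (log2 change 0.80). *Dnmt3a* had 839 and 675 and 1289 and 1220.2, a log2 change of 0.74 that passed the p threshold (adjusted p = 0.00583 from limma) but not the 1.8-fold limit, and of its 5 probe sets 1 rose and 1 fell. Their cofactor *Dnmt3l*, which is made in ES cells, fell from 2088 and 2025 to 1030.5 and 1011 (log2 change -1.01). Of 8 genes of DNA methylation 1 rose and 3 fell. *Tet2*, which oxidizes methylcytosine, fell from 954 and 1059.8 to 360.0 and 328 (log2 change -1.55), and *Tet3* had a log2 change of -0.94. *Sox3*, a SOXB1 factor, read 212 and 228 and 248 and 252 and did not pass (adjusted p = 0.563 from limma), while its other probe set fell (log2 change -1.64).

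**Figure D2:**
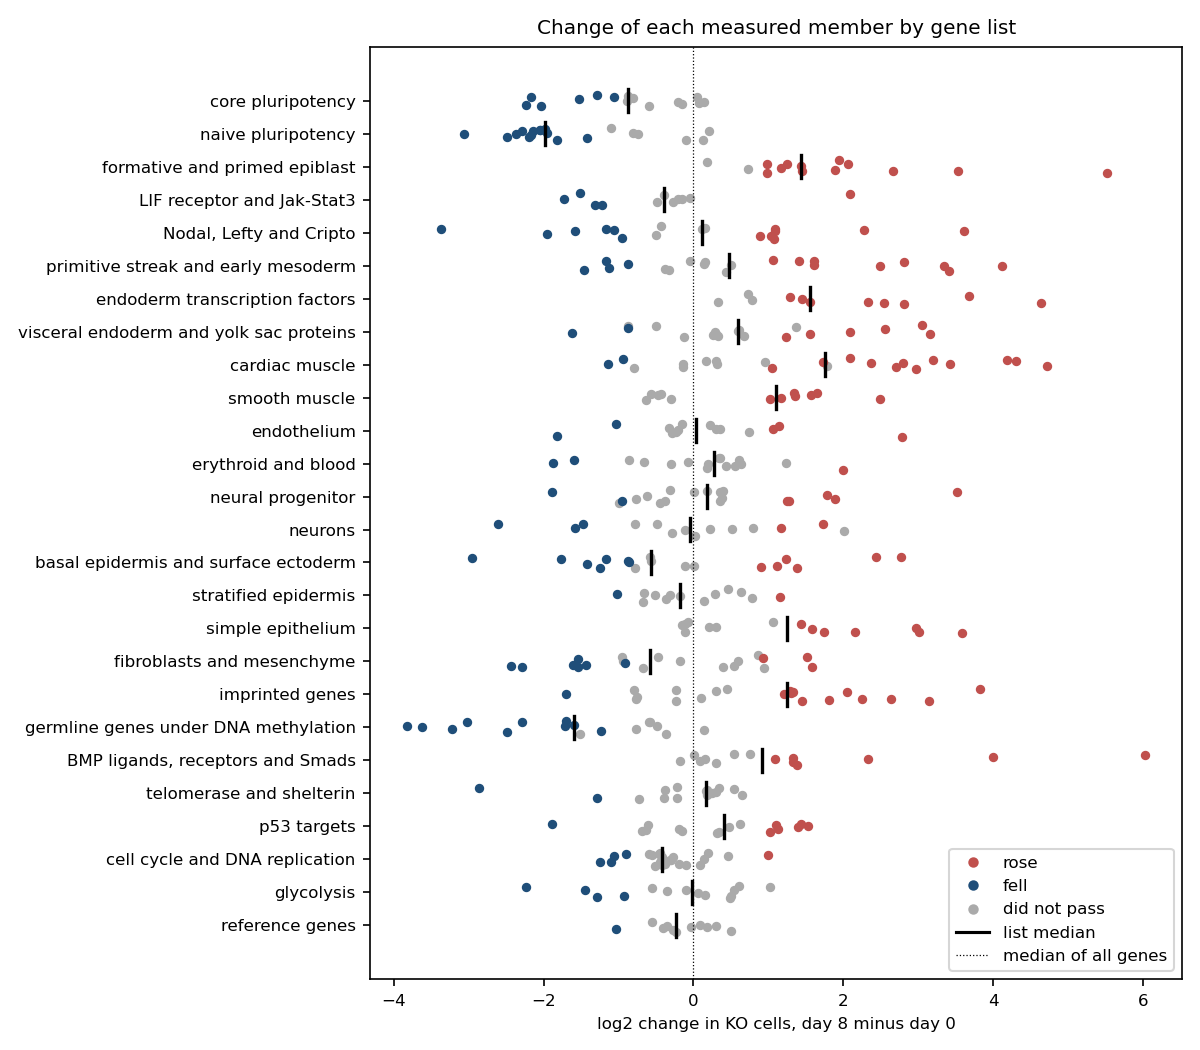
Log2 change in KO cells from day 0 to day 8 of each measured member of 26 gene lists, 1 point per gene, coloured by whether it rose, fell or did not pass, with a bar at each list's median and a dotted line at the median of all genes. Naive pluripotency sits at a median of -1.98 and formative and primed epiblast at 1.44, while reference genes sit at -0.23.

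Of 11 genes of the LIF pathway, 4 fell and 1 rose. Those that fell were *Lifr*, the LIF receptor, and *Socs3*, *Bcl3* and *Pim1*, which Stat3 induces. *Socs3* went from 524 and 487 to 167 and 189 (log2 change -1.51, adjusted p = 1.58e-06 from limma), *Lifr* had a log2 change of -1.21, *Bcl3* of -1.73 and *Pim1* of -1.32. The kinase *Jak2* rose from 70.0 and 74.3 to 317 and 296 (log2 change 2.09). The other probe sets of *Lifr* (log2 change 0.33 and 0.64), *Pim1* (-0.59) and *Jak2* (0.63) did not pass.

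In the Nodal pathway 7 of 17 genes rose and 6 fell. Among the ligands, *Inhbb*, an activin subunit, fell from 440.5 and 544 to 53.5 and 41.6 (log2 change -3.37, adjusted p = 8.50e-08 from limma), and *Gdf3*, already among the naive genes above, fell too. The other *Inhbb* probe set had a log2 change of 0.11 and did not pass. Among the antagonists, *Cer1* (Cerberus) rose from 22.9 and 21.2 to 244 and 300.5 (log2 change 3.62, adjusted p = 1.84e-07 from limma), while *Lefty2*, an inhibitor that Nodal itself induces, fell from 490.2 and 699.7 to 183 and 210.0 (log2 change -1.58). *Foxh1*, the DNA-binding partner of the Smads, rose from 195 and 189 to 890.5 and 976 (log2 change 2.28), but only 1 of its 3 probe sets rose. The 3 activin receptors *Acvr1b*, *Acvr2a* and *Acvr2b* and the signal transducers *Smad3* and *Smad4* rose with log2 changes from 0.89 to 1.09, all chosen after their values were seen, but 1 of the 2 *Acvr1b* probe sets fell and not every probe set of the others passed. The ligands that passed fell, while antagonists moved both ways.

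Primitive streak genes rose in part. Of 20 measured genes, 9 rose and 4 fell, with a median log2 change of 0.47. *Fgf8*, the streak's Fgf ligand, rose from 41.2 and 44.5 to 812 and 684 (log2 change 4.12, SE 0.45, adjusted p = 4.02e-05 from limma). *Mixl1* and *Eomes*, transcription factors of mesoderm and endoderm precursors, went from 31.7 and 44.6 to 517 and 311 and from 163 and 223 to 2065 and 1837, log2 changes of 3.42 and 3.35. *Lhx1* and *Gsc*, genes of the anterior streak, rose with log2 changes of 2.82 and 2.50. In all 5 genes both day 8 arrays lay above both lines.

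Endoderm transcription factors rose, 8 of 11 with 0 falling and a median log2 change of 1.55. The forkhead factor *Foxa2* rose from 45.1 and 34.3 to 1024 and 948 (log2 change 4.65, SE 0.41, adjusted p = 1.13e-05 from limma) and its relative *Foxa1* had a log2 change of 3.67. *Sox17*, a factor of definitive and extraembryonic endoderm, rose from 41.8 and 47.1 to 253 and 266 (log2 change 2.55). *Gata4* and *Gata6*, factors of primitive endoderm and heart, had log2 changes of 2.33 and 2.81, and 1 of the 3 *Gata6* probe sets fell.

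Secreted proteins of visceral endoderm and yolk sac rose for 6 of 19 genes (31.6%) and fell for 2 (10.5%), beside 14.9% and 16.6% of all genes. The transport protein *Ttr* went from 61.8 and 57.1 to 645 and 438 (log2 change 3.16, adjusted p = 8.67e-05 from limma), the lipoprotein *Apob* had a log2 change of 3.05, and *Rbp4*, which carries retinol, of 2.56. *Afp*, alpha-fetoprotein, was at 90.9 and 141 at day 8 after 25.8 and 27.5 at day 0 (log2 change 2.09, SE 0.59, adjusted p = 0.013 from limma). This call was lost without F35 or without the second day 8 array. Another, dimmer *Afp* probe set rose with a log2 change of 5.94 (SE 0.46, adjusted p = 5.06e-06 from limma), and the remaining one had -0.26 and did not pass. *Apoa2* moved the other way, from 1177 and 1030.5 to 364 and 356 (log2 change -1.61, adjusted p = 0.0123 from limma, and 0.0666 without F35). Of 12 basement membrane genes of parietal endoderm 3 rose and 2 fell. The type IV collagens *Col4a1* and *Col4a2* rose with log2 changes of 2.87 and 3.02 and *Sparc* with 1.44, and the thrombin receptor *Thbd* fell by a log2 change of -2.55.

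**Figure D3:**
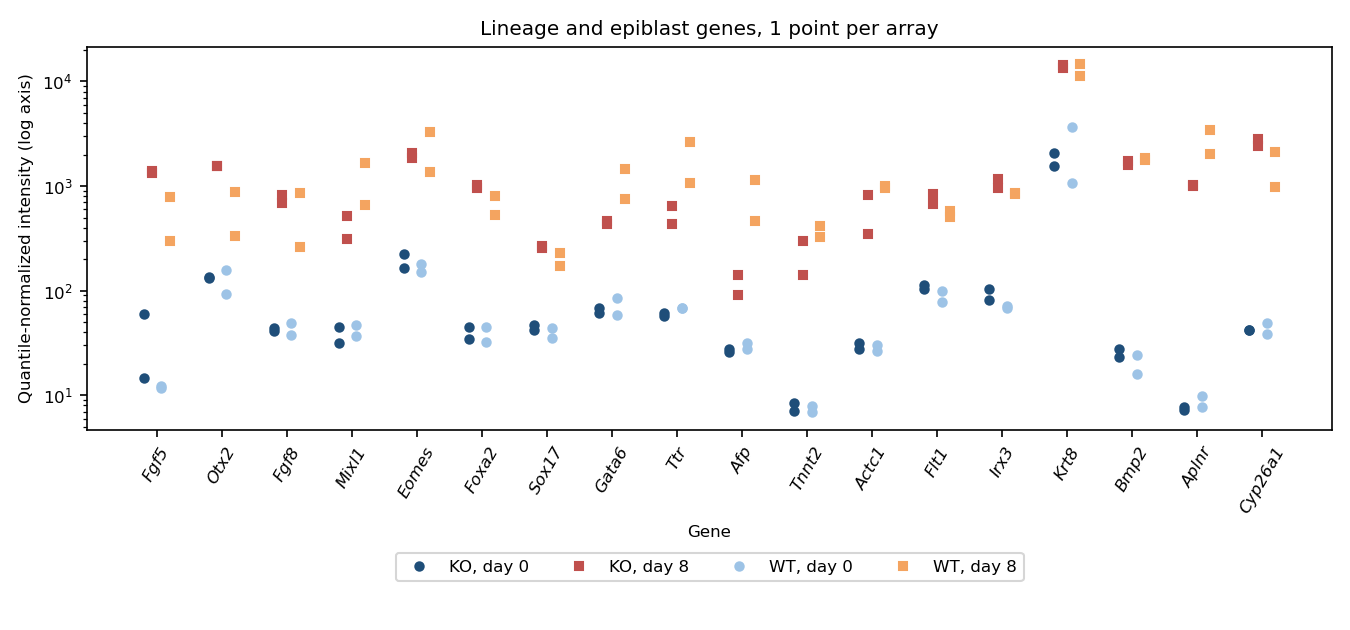
Normalized intensity (log axis) of 18 epiblast and lineage genes on each array, with circles for day 0 and squares for day 8, in dark colours for KO and light colours for WT cells. In KO cells every day 8 point lies above every day 0 point of the same gene, from 14.7 and 59.3 to 1341 and 1379 for *Fgf5* and from 7.11 and 8.43 to 140.4 and 299 for *Tnnt2*.

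Cardiac muscle genes rose for 12 of 22 genes and fell for 2, with a median log2 change of 1.76. *Tnnt2*, the cardiac troponin T, went from 7.11 and 8.43 to 140.4 and 299 (log2 change 4.73, SE 0.41, adjusted p = 8.95e-06 from limma). Its day 0 values lay at percentiles of 2.15 and 3.57, near the bottom of the arrays, and with an offset of 32 added to each value the log2 change was 2.59. *Tnnc1*, troponin C, went from 70.1 and 64.2 to 1014 and 1723 (log2 change 4.30), and *Actc1*, cardiac actin, from 27.5 and 31.9 to 351 and 824 (log2 change 4.18). In these contractile genes the second day 8 array was higher than the first. The transcription factors *Hand2* and *Tbx20*, which act early in heart formation, rose with log2 changes of 3.43 and 3.20, though 1 of 3 *Tbx20* probe sets fell. *Myh6*, the adult-type myosin heavy chain, chosen after its value was seen, read 106 and 108 at day 0 and 73.2 and 128 at day 8 and did not pass.

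Of 12 smooth muscle genes 7 rose and 0 fell. *Myocd*, the coactivator that drives smooth muscle genes, went from 24.5 and 24.7 to 101 and 191 (log2 change 2.49). The contractile proteins *Acta2* and *Tagln*, high in ES cultures already at 2662 and 3908 and 1568 and 2687, rose with log2 changes of 1.35 and 1.35. Of 14 endothelial genes 3 rose and 2 fell. *Pecam1*, already among the naive genes above, is of this list too and fell (log2 change -1.82). *Flt1*, a VEGF receptor, had a log2 change of 2.78 and *Kdr*, the other main VEGF receptor, of 1.06. The *Kdr* call was lost without A49 (adjusted p = 0.161 from limma) and without the first (0.101) or second (0.0967) day 8 array. Of 16 blood genes 1 rose and 2 fell, 6.25% and 12.5% beside 14.9% and 16.6% of all genes. The one that rose was *Lmo2*, from 48.2 and 45.4 to 194 and 180.3 (log2 change 2.00). Embryonic globin *Hba-x* read 25.1 and 28.4 at day 0 and 69.2 and 57.6 at day 8 and did not pass (adjusted p = 0.194 from limma).

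Neural genes moved in both directions. Of 19 progenitor genes 5 rose (26.3%) and 2 fell (10.5%), and of 14 neuronal genes 2 rose (14.3%) and 3 fell (21.4%). Of all genes 14.9% rose and 16.6% fell. *Irx3*, a homeobox factor, rose from 81.0 and 105 to 961 and 1163 (log2 change 3.52, adjusted p = 1.52e-08 from limma), and *Nes* (nestin) from 226 and 265 to 577 and 611 (log2 change 1.28). *Neurod1* fell from 814 and 366 to 92.0 and 87.5 (log2 change -2.60). *Nefm*, a neurofilament, differed between the day 0 lines, at 25.8 and 262 in F35 and A49, and read 345 and 318 at day 8. It did not pass with both lines (adjusted p = 0.0762 from limma) and passed without A49 (log2 change 3.73, adjusted p = 1.86e-04 from limma).

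Surface ectoderm and epidermal genes did not rise as a group. Of 18 genes of surface ectoderm and basal epidermis 6 rose and 7 fell. Among those that rose were *Gata3*, from 31.2 and 25.2 to 165 and 220.3 (log2 change 2.77), and the BMP-responsive homeobox gene *Msx2*, from 103 and 96.7 to 602 and 484 (log2 change 2.44). *Tfap2c*, which is also made in ES cells, fell from 2433 and 2081 to 317 and 268 (log2 change -2.95, adjusted p = 6.98e-06 from limma). The epidermal keratins *Krt5* and *Krt14* and *Trp63*, which specifies epidermis, read 76.3 and 63.2, 28.8 and 25.5 and 21.7 and 24.6 at day 8 after 181 and 191, 48.2 and 51.2 and 56.4 and 53.5 at day 0. All 3 fell, *Krt5* from percentiles of 71.7 and 72.6 to 53.7 and 48.8, with *Trp63* at percentiles of 45.7 and 44.3 at day 0 and 18.0 and 21.3 at day 8. The *Krt14* change was under 1.8-fold without A49 (log2 change -0.84) or the second day 8 array (-0.78). With an offset of 32 the log2 changes of *Krt14* and *Trp63* were -0.47 and -0.66, both under 1.8-fold. The other *Krt14* probe set had a log2 change of 0.52 and did not pass. Those of *Trp63* had -1.73, -0.14 and 0.25, and only the first passed, so the falls of *Krt14* and *Trp63* are uncertain. Of 13 stratified epidermis genes 1 rose and 1 fell. On the brightest probe sets the log2 changes of *Krt5*, *Krt14* and *Trp63* were -1.52, -1.25 and -1.47 in WT cells. In KO cells they were -1.42, -0.88 and -1.25. None of the 3 differences between KO and WT changes passed (adjusted p = 0.928, 0.693 and 0.788 from limma).

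Simple epithelium genes rose, 7 of 14 with 0 falling and a median log2 change of 1.25. The keratins *Krt8* and *Krt18*, which pair in single-layered epithelia, went from 2057 and 1546 to 13479.9 and 14482 and from 2542 and 1633 to 8603 and 9596, log2 changes of 2.97 and 2.16. *Krt19* rose with a log2 change of 3.01. By percentile ranks, in which the bright *Krt8* and *Krt18* moved by under 10 points, 3 of the list rose. *Dsp*, a desmosome protein, rose from 301 and 261 to 3356 and 3359.6 (log2 change 3.58, adjusted p = 1.38e-05 from limma). *Cdh1* (E-cadherin), chosen after its value was seen, kept a high level, 4672 and 3625 at day 0 and 3561 and 3873 at day 8 (log2 change -0.15), while *Cdh2* (N-cadherin) rose from 106 and 166 to 1028 and 940.2 (log2 change 2.89, adjusted p = 1.00e-06 from limma). Of 14 genes of the epithelial-mesenchymal transition 6 rose and 1 fell, *Snai1* and *Zeb2* rising with log2 changes of 1.61 and 2.12. Of the 5 *Zeb2* probe sets 2 rose and 2 fell.

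Germline genes that DNA methylation keeps silent in somatic cells fell, 10 of 17 with 0 rising and a median log2 change of -1.60. *Mael*, a protein of the piRNA pathway, went from 314 and 380.0 to 30.1 and 19.9 (log2 change -3.82, adjusted p = 1.07e-07 from limma), and *Ddx4* (Vasa), a germ cell helicase, from 848 and 738 to 60.5 and 68.1 (log2 change -3.62). *Stk31* and *Hormad1*, a testis kinase and a meiotic chromosome protein, had log2 changes of -3.22 and -3.02. In each of these 4 genes both lines lay above both day 8 arrays. *Zfp42*, already described, is a member of this list too.

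Among imprinted genes 11 of 20 rose and 1 fell, with a median log2 change of 1.25. *Dlk1*, a Notch-like protein, rose from 43.8 and 56.3 to 538 and 924 (log2 change 3.83, adjusted p = 1.26e-04 from limma). The growth factor *Igf2* and its scavenging receptor *Igf2r* rose from 1611 and 1069 to 7529.6 and 8931 and from 278 and 233 to 2061 and 2479, log2 changes of 2.64 and 3.15. The other probe sets of *Dlk1* (log2 change 0.20) and *Igf2* (0.07) did not pass. *Grb10* and *Cdkn1c*, which restrain growth, rose with log2 changes of 2.25 and 2.05. By percentile ranks 6 of the list rose. Paternally and maternally expressed genes were both among those that rose.

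In the BMP pathway 7 of 14 ligands, receptors and Smads rose and 0 fell. *Bmp2* went from 23.2 and 27.5 to 1583 and 1727 (log2 change 6.03, SE 0.18, adjusted p = 1.48e-09 from limma). *Bmp4* rose from 343 and 208 to 1177 and 1526 (log2 change 2.33) and *Bmp5* from 16.4 and 15.3 to 249.9 and 255 (log2 change 4.00), with 1 of 3 *Bmp5* probe sets falling. The receptor *Bmpr2* and the signal transducer *Smad1* rose with log2 changes of 1.33 and 1.38, while *Bmp7* had 0.30 and *Bmpr1a* 0.09 and neither passed. Of 16 BMP targets 5 rose and 1 fell. *Smad6*, a feedback inhibitor, rose from 71.5 and 91.2 to 282 and 241 (log2 change 1.69), and *Atoh8* fell from 314 and 306 to 63.8 and 65.0 (log2 change -2.27).

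Of 13 BMP and activin antagonists 4 rose (30.8%) and 0 fell, beside 14.9% and 16.6% of all genes. *Bmper* went from 25.6 and 50.2 to 289 and 231 (log2 change 2.85) and *Chrd* (chordin) from 59.6 and 66.8 to 123 and 135 (log2 change 1.03). With an offset of 32 the log2 change of *Chrd* was 0.76, under 1.8-fold. *Fst* (follistatin), which binds activin and BMPs, read 154 and 261 in F35 and A49 and 322 and 252 at day 8, a log2 change of 0.51 (SE 0.33, adjusted p = 0.198 from limma). On this probe set A49 lay above the second day 8 array. Its other, dimmer probe set rose, with a log2 change of 2.83 (SE 0.38, adjusted p = 1.27e-04 from limma), so the change of *Fst* is uncertain.

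Lists of telomere, growth control and chromatin genes follow. Of 16 genes of telomerase and of shelterin, the complex that caps telomeres, 2 fell and 0 rose. *Terf1*, which binds the telomere repeat and is high in ES cells, went from 1507 and 1848 to 236 and 223 (log2 change -2.86, SE 0.18, adjusted p = 2.43e-07 from limma). *Pot1a* differed between the lines, at 518 and 253 in F35 and A49, and read 150.1 and 148 at day 8, and of its 4 probe sets 1 rose and 1 fell. Without F35 its log2 change was -0.77, under 1.8-fold, and over all its probe sets it was 0.00. *Tert*, the protein subunit of telomerase, had 254 and 264 and 172 and 142, a log2 change of -0.73 that passed the p threshold (adjusted p = 0.00298 from limma) but not the 1.8-fold limit.

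Of 16 p53 targets 6 rose and 1 fell. *Cdkn1a* (p21), a cell cycle inhibitor, rose from 1827 and 2075 to 4065 and 4470.3 (log2 change 1.13), *Sesn2* and *Btg2* had log2 changes of 1.53 and 1.44, and the proapoptotic *Pmaip1* (Noxa) fell from 3088 and 3723 to 913 and 924 (log2 change -1.89, adjusted p = 6.87e-05 from limma). Cell cycle genes fell for 4 of 23 and rose for 1, shares of 17.4% and 4.35% beside 16.6% and 14.9% of all genes. *Cdk1* went from 3666 and 4127 to 1851 and 1885 (log2 change -1.06) and *Ccnd2* (cyclin D2) rose with 0.99. The *Ccnd2* call was lost without F35 or the second day 8 array (adjusted p = 0.187 and 0.14 from limma). Of 7 cyclin-dependent kinase inhibitors 3 rose, *Cdkn1c* and *Cdkn1a* among them, and the third was *Cdkn2b* (log2 change 1.17), whose call was lost without F35 (adjusted p = 0.186 from limma), without A49 (0.0637) and without the first (0.073) or second (0.152) day 8 array. Glycolysis genes fell for 4 of 14 (28.6%, beside 16.6% of all genes), *Pdk1* with a log2 change of -2.23. Of 10 PRC2 genes 1, *Aebp2*, fell (log2 change -0.90, and -0.76 without A49), and *Ezh2* had a log2 change of -0.37. Of 24 *Hox* genes 3 rose and 3 fell, with *Hoxd1* going from 12.2 and 13.8 to 68.5 and 55.7. Of 7 measured genes of 2-cell-like cells 3 fell, and *Usp17la* among them differed between the lines, at 116 and 369.6 in F35 and A49 and 39.5 and 42.0 at day 8. *Hmga2*, an architectural chromatin protein, rose from 583 and 884 to 1791 and 1878 (log2 change 1.35). Of 7 genes of the Lin28, Hmga and Igf2bp families 2 rose and 1 fell. Of 23 genes that the study singled out, a choice made on these samples and so no independent evidence, 4 rose and 4 fell. These shares are 17.4% each, beside 14.9% and 16.6% of all genes. The shares called among these 23 genes and in the endothelial, neuronal, stratified epidermis, *Hox*, PRC2 and telomere lists lie near or under those of all genes. Their counts are no result about those lists. Of 4 sex chromosome genes read as a check of the lines 0 rose and 1, *Xist*, fell, and the Y-linked *Eif2s3y* stood at percentiles of 88.6 and 91.5 at day 0 and 85.9 and 85.4 at day 8.

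The largest rises among genes that reached the percentile 60 of the array or higher included *Aplnr*, the apelin receptor of early mesoderm, which went from 7.22 and 7.74 to 1025 and 992 (log2 change 7.08, SE 0.23, adjusted p = 4.13e-09 from limma). Its day 0 values lay at percentiles of 2.26 and 2.78, near the bottom of the arrays, and with an offset of 32 the log2 change was 4.72. *Bmp2* was among them, and *Cyp26a1*, which degrades retinoic acid, rose from 41.8 and 42.0 to 2432 and 2804 (log2 change 5.96). *Irs4*, an insulin receptor substrate, and *Slc39a8*, a metal transporter, had log2 changes of 5.88 and 5.77. The other *Irs4* probe set had a log2 change of 0.23 and did not pass. *Spink1*, a protease inhibitor, rose from 204 and 172 to 7246 and 7246 (log2 change 5.27). The others were *Fgf5*, *Dgkk*, *Klhl4*, *Greb1*, *Rgs5* and *Amot*, at log2 changes from 4.86 to 5.53. *Klhl4* and *Rgs5* also started from low values, at percentiles of 0.23 and 0.30 and of 18.2 and 17.7. *Amot* is uncertain, since the brightest of its 3 probe sets rose and the other two fell.

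The largest falls included *1700094J05Rik*, a gene known by a clone name, from 257 and 250.4 to 9.02 and 7.11 (log2 change -4.98, and -2.83 with an offset of 32), and *Gzmf*, a granzyme, with a log2 change of -3.89. *Mael* and *Ddx4*, described above, were among them. *Calml4* fell from 628 and 168 to 16.4 and 20.9 (log2 change -4.13, SE 0.54), with F35 far above A49. *Tfpi2* and *Tm4sf1* had log2 changes of -3.93 and -3.66, and in both A49 was the higher line, at 170.5 and 344 and 398 and 674 in F35 and A49. *Gm7969*, *Gm7788*, *Ccdc38*, *Mymx* and *Pramel6* fell with log2 changes from -3.86 to -3.58, and *Gm7969* is uncertain because its other probe set rose. Of these, *1700094J05Rik*, *Gzmf*, *Calml4*, *Tfpi2*, *Gm7969* and *Ccdc38* ended under the percentile 20 on both day 8 arrays, so the sizes and the order of their falls are uncertain. The lines differed by at least 1.8-fold in 232 genes (1.28%), and the day 8 arrays in 45 (0.249%).

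Fibroblast genes were measured because the ES cells grew on fibroblast feeders. Of 20 genes 7 fell and 3 rose. *Dcn*, a matrix proteoglycan, fell from 403 and 590.4 to 91.7 and 89.4 (log2 change -2.43, adjusted p = 0.00728 from limma), *Prrx1*, a mesenchymal homeobox factor, from 184 and 375 to 63.3 and 46.2 (log2 change -2.28), and *Thy1* and *S100a4* had log2 changes of -1.60 and -1.54. In all 4 genes A49 was the higher line. Without A49 3 of the list fell, and *Dcn* and *Prrx1* lost their calls (adjusted p = 0.0511 and 0.0579 from limma). *Twist1* rose from 73.4 and 78.3 to 219.9 and 233 (log2 change 1.58). The 7 fibroblast markers used as a check, none of them at 0, summed to 3189 and 4922 in F35 and A49 and to 3398 and 3686 on the day 8 arrays, ranges that overlap. The part of feeder cells in the changes of mesenchymal genes, or in those of *Tfpi2* and *Tm4sf1*, was not tested.

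**Figure D4:**
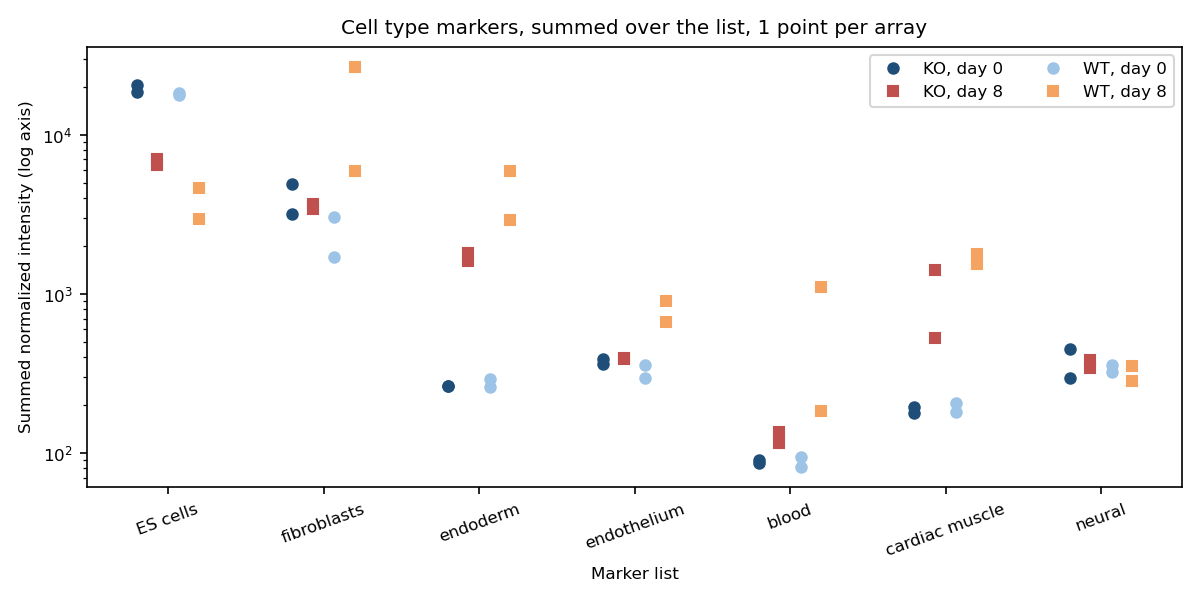
Normalized intensity summed over the markers of 7 cell types on each array (log axis), with circles for day 0 and squares for day 8, in dark colours for KO and light colours for WT cells. ES cell markers sum to 18596 and 20606 in KO cells at day 0 and 7082 and 6500.5 at day 8, and the fibroblast markers of the second WT day 8 array, at 26685, lie above all other arrays.

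WT cells moved largely in the same way. Across 18093 genes the log2 changes of KO and WT cells had a Pearson correlation of 0.927, given as a description, since genes are not independent and day 0 differs in scale from day 8 in both genotypes. The difference between the 2 changes, KO minus WT, was tested as an interaction in the same fit, in which a scaling common to a day cancels. Of 18093 genes, 0 (0.0%) were called by this test with a KO change above the WT change and 2 (0.0111%) with one below it. An unadjusted p under 0.05 was found for 1668 genes (9.22%).

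The genes called were *Aldh1a2* and *Klhl29*. *Aldh1a2*, which makes retinoic acid, fell in KO cells from 145 and 137 to 46.1 and 48.7, while WT cells read 37.8 and 32.4 and 36.4 and 46.1. The difference of the changes was -1.80 (SE 0.21, adjusted p = 0.0483 from limma). Both KO lines stood above both WT lines at day 0, and the 4 day 8 values overlap. *Klhl29*, chosen after its value was seen and at low levels throughout, read 24.8 and 23.6 and 18.4 and 16.1 in KO cells and 22.8 and 19.3 and 44.4 and 44.3 in WT cells, a difference of -1.57 (adjusted p = 0.0483 from limma). Both calls lie just inside the threshold and were lost when only the 8 arrays of these days were fitted (adjusted p = 0.0768 and 0.0828 from limma). Single arrays moved these counts of called genes. Without the first WT day 8 array 205 genes had a KO change above and 350 one below the WT change, and without F35 34 and 48. Without any other of the 8 arrays the counts were at most 5 and 6.

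No pluripotency gene passed this test, and their changes are given side by side. All 15 core genes had a KO change above the WT change, that is, a smaller fall or none, and so had 17 of 19 naive genes, beside 53.9% of all genes. The median log2 changes were -0.87 in KO and -1.52 in WT cells for the core list and -1.98 and -2.69 for the naive list. *Sox2* ended at 1475 and 1335 in KO and 776 and 581 in WT cells, a difference of changes of 1.04 (adjusted p = 0.396 from limma). *Klf2* ended at 916 and 786 and 272 and 277, with a difference of 1.29 (adjusted p = 0.206 from limma), and *Pou5f1* at 3156 and 2974 and 2397 and 1343, with a difference of 0.70 (adjusted p = 0.762 from limma). In these 3 genes both KO day 8 arrays lay above both WT day 8 arrays.

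Of the formative genes 9 of 14 had a KO change above the WT change, and 0 passed. *Otx2* ended at 1568 and 1547 in KO and 886 and 331 in WT cells (difference 1.37, adjusted p = 0.527 from limma), and *Pou3f1* at 1121 and 1316 and 573 and 342 (difference 1.40, adjusted p = 0.313 from limma). *Dnmt3l* ended at 1030.5 and 1011 and 366 and 281, with a difference of 1.68 (adjusted p = 0.152 from limma). In these genes the KO arrays were again the higher ones at day 8.

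On the other side, the KO change lay below the WT change in 20 of 20 fibroblast genes and 12 of 12 genes of parietal endoderm. It did so in 16 of 19 genes of visceral endoderm, beside 8337 of all 18093 genes, and 0 of each list passed. Genes of a list are read on the same arrays and are not independent, here and in the pluripotency lists above, so these counts are a description. *Afp* ended at 90.9 and 141 in KO and 461 and 1135 in WT cells (difference -2.52, adjusted p = 0.409 from limma), *Dlk1* at 538 and 924 and 1964 and 6455 (difference -2.54, adjusted p = 0.301 from limma) and *Fst* at 322 and 252 and 497 and 458 (difference -1.89, adjusted p = 0.245 from limma). The other *Fst* probe set gave a difference of -0.65. On the brighter *Fst* probe set both KO lines stood above both WT lines at day 0. At day 8 both KO arrays lay below both WT arrays. Its difference therefore holds a higher KO start as well as a lower KO end. The WT day 8 arrays differed from each other in these cell types. The 7 fibroblast markers summed to 5889.8 and 26685 on them, against 3398 and 3686 in KO cells, and the 5 endoderm markers to 2915 and 5887 against 1803 and 1619.9. Their part in the differences was not tested.

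**Figure D5:**
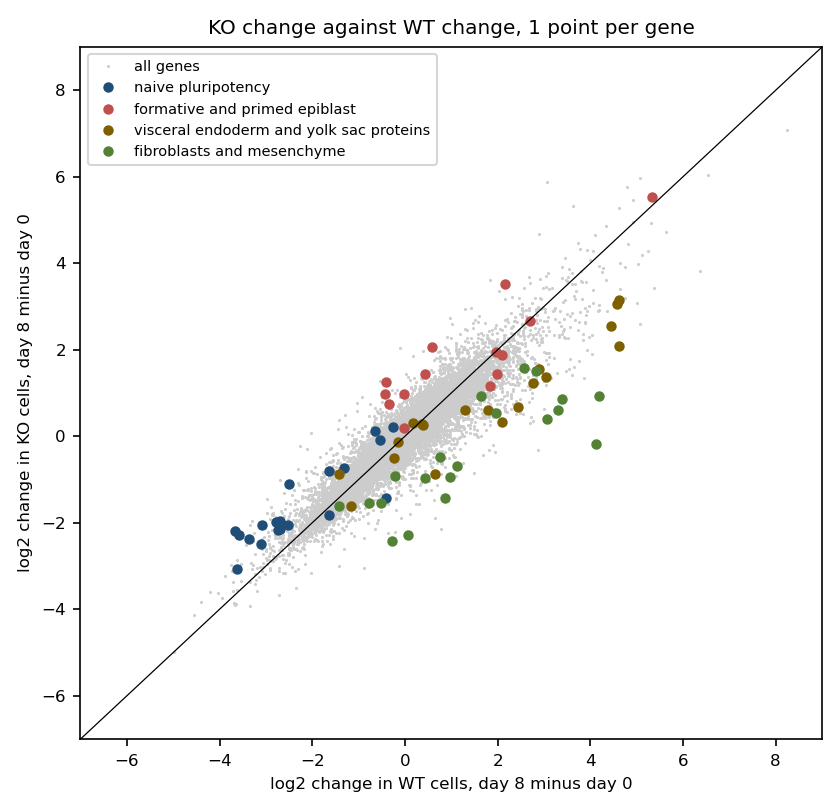
Log2 change from day 0 to day 8 in KO cells against that in WT cells, 1 point per gene, with 4 lists in colour and a line where both are equal. Of the naive genes 17 of 19 lie above the line and *Tbx3* and *Pecam1* below it, and all 20 fibroblast genes lie below it.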

How the data were processed

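The deposited values are 1 linear intensity per probe set and array, made by the authors from total RNA hybridized to the arrays. The submitters' processing notes name MAS5, with no version or settings. Of 45101 probe sets 64 controls were left out, 34945 of the rest carry 1 gene symbol, 932 several and 9160 none. A gene was read from its brightest probe set of 1 symbol, and the 2441 probe sets of the x_at type, whose probes can match other genes, were left out of genes, percentiles and rankings. The files name no genome build.

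Intensities under 1 were set to 1, quantile normalized over all 12 arrays and put on the log2 scale. The 6 group means were estimated in limma 3.58.1 on R 4.3.3, with statmod 1.5.0, using trended and robust moderation, and tests were two-sided. The fit was run on simulated data in which a far smaller share of probe sets changed than was called here. That run therefore does not test the normalization under so broad a change. Summaries used pandas 2.3.3 and numpy 2.4.6 under Python 3.11.15, and plots matplotlib 3.10.9.

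Genes named were drawn from the 12 largest rises and 12 largest falls among genes called at a mean percentile of at least 60 in the higher group, up to 8 each way for the difference from WT cells by the same limit, up to 5 members per list by size of change, and the members of the core, naive, formative and reference lists and of the genes the paper names. Not all of these are named in the text, and the counts cover the rest. Any other gene named is said to have been picked from its values. The comparison and the 38 lists were chosen with earlier results of these data known. Alternatives were other scalings, offsets, filters, thresholds and sets of arrays, and a replicate block. Further ones were an unpaired t-test on the KO arrays, the mean over probe sets, and each array left out in turn.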

Additional observations from a re-analysis of the deposited data

Results flagged for a closer look

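At 5 probe sets the change from day 0 to day 8 differed between KO and WT cells by the test of the difference itself, each with adjusted p = 0.0483 from limma. The log2 difference, KO minus WT, was -1.93 for *Tdo2*, which degrades tryptophan, -1.80 for *Aldh1a2*, -1.57 for *Klhl29*, -1.49 for *Vegfc*, a lymphatic growth factor, and 1.72 for *Meg3*, a maternally expressed long non-coding RNA. *Tdo2*, *Meg3* and *Vegfc* are read here from a probe set other than their brightest, and that of *Vegfc* is of the x_at type, so these 3 were chosen after their values were seen.

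*Tdo2* read 9.51 and 9.65 in F35 and A49 and 46.9 and 44.8 on the KO day 8 arrays, and 12.1 and 8.68 and then 193 and 179 on the WT arrays, so both WT arrays were the higher ones at day 8. *Meg3* read 53.4 and 60.3 and then 256 and 202 in KO cells, against 62.5 and 66.7 and 78.5 and 78.3 in WT cells, so both KO arrays were the higher ones at day 8. *Vegfc* read 342 and 388 and 146 and 157 in KO cells and 219 and 217 and 281 and 230.1 in WT cells. With each of the 8 arrays of these days left out in turn, adjusted p ranged from 0.00315 to 0.214 for *Aldh1a2* and from 0.00766 to 0.214 for *Tdo2*, and with a replicate block it was 0.0692 for all 5. Groups of 2 arrays are too small for a test of single outlying arrays.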

How the results depend on the processing

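Across 182 genes and all settings with a value per gene, 2509 gene values kept their direction and their side of the threshold, 137 kept the direction and lost the call, 33 gained it and 32 changed sign. The numbers of genes that rose and fell were 425 and 10446 as deposited, 1666 and 1734 with an offset of 32 and 5769 and 5820 with no fold threshold. With only the brighter probe sets 1969 rose and 1568 fell, so that more rose than fell, and 1493 rose and 2049 fell by all their probe sets, an alternative added after seeing the data. With arrays left out in turn 2607 to 2780 rose and 2935 to 3067 fell. The 2-group test of the methods called 1890 and 2161 genes after Benjamini-Hochberg adjustment.

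As deposited, 11 core, 16 germline and 11 fibroblast genes fell, and 6 formative, 5 streak, 5 endoderm factor, 3 visceral endoderm, 6 imprinted and 3 BMP genes rose. By percentile ranks 1 core gene fell, and 7 formative, 3 simple epithelium and 6 imprinted genes rose. Among brighter probe sets 5 germline genes fell. Of the genes named, *Acvr2a*, *Afp*, *Chrd*, *Kdr*, *Krt14*, *Tet3*, *Trp63* and *Xist* lost their calls with an offset of 32, and *Fgf4* gained one. With arrays left out 3 to 7 fibroblast genes fell.

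The next counts, for the difference from WT cells, are of genes called by its test. Below the WT change lay 0 when centred on the median, 0 as deposited, 0 without x_at probe sets and 1 with the offset. The count was 0 among brighter probe sets, 0 without trend and robust moderation and 0 with only the 8 arrays of days 0 and 8. By percentile ranks 1 lay above, and over the mean of all probe sets 2. With arrays left out 0 to 205 lay above and 0 to 350 below.

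With a replicate block by number within genotype 2708 genes rose, 3004 fell and 0 were called below the WT change. *Tdgf1* and *Zic5* lost their calls, while every other gene named kept its side of the threshold. Same-numbered KO arrays of days 0 and 8 deviated together with a correlation of 0.017, and those of WT cells with -0.127, so the numbers were not taken to pair arrays. With the WT day 0 numbers crossed 0 genes were called above and 0 below.

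Some genes changed sign. Centred on the median the log2 change was 0.43 for *Cdh1*, 0.37 for *Dppa5a*, 0.012 for *Ezh2*, 0.28 for *Klf5*, 0.0152 for *Myh6*, 0.32 for *Rif1* and 0.36 for *Sall4*. As deposited it was -0.66 for *Bmp7*, -0.71 for *Bmpr1a*, -0.101 for *Chrd*, -0.0803 for *Dnmt3a*, -0.78 for *Foxd3*, -0.32 for *Fst*, -0.16 for *Hba-x*, -0.64 for *Lin28a*, -0.73 for *Nr5a2*, -0.62 for *Sox3*, -0.66 for *Trim71* and -0.58 for *Zfp57*. Over the mean of all probe sets it was -0.17 for *Acvr1b*, 0.0504 for *Klf5*, -0.79 for *Nr5a2*, 0.0013 for *Pot1a*, -0.73 for *Sox3*, 0.0501 for *Tbx3* and -0.24 for *Trim71*. With KO arrays left out in turn it ranged from -0.34 to 0.0355 for *Cdh1*, from -0.78 to 0.0271 for *Ezh2*, from -0.65 to 0.76 for *Foxd3*, from -0.54 to 0.27 for *Myh6* and from -0.0394 to 0.29 for *Nr5a2*. The cause of these changes was not tested.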
